A study of Homo sapiens with 6 samples.

Results

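The genes described here encode the nuclear pore complex and the soluble carriers that move proteins and RNA through it. They were taken by symbol from the protein-coding genes of the count table: the nucleoporins, the importin alpha adaptors, the importins, exportins and transportins, and the GTPase Ran. The choice gave 57 genes among 17075 protein-coding genes and 30230 genes in all. The rule reads symbols and gene type only, and it was set with earlier results of these data known. The cells were A549, established from a human adenocarcinoma of the lung. RNA sequencing covered 3 libraries of cells that received a negative control (NC) and 3 of cells silenced for FSCN1 (siFSCN1), which encodes fascin, a protein that bundles actin filaments. The study describes the control as a scrambled siRNA, whereas the treatment label of the NC samples names a control plasmid. It describes the libraries of each group as biological replicates and names a single siRNA for the silenced cells, so other effects of that siRNA and the loss of FSCN1 cannot be told apart. The comparison asks which transcripts of the transport machinery change when FSCN1 is silenced.

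The nuclear pore complex is a ring-shaped assembly set into the nuclear envelope. A scaffold of outer and inner rings is held in the membrane by transmembrane nucleoporins, and the central channel is filled by nucleoporins rich in phenylalanine-glycine repeats. Filaments on the cytoplasmic face and a basket on the nuclear face serve as docking sites. Small molecules diffuse through the channel, while most proteins and RNAs pass bound to a carrier of the importin beta superfamily. Importin alpha joins cargo with a classical nuclear localisation signal to importin beta (KPNB1). Ran, loaded with GTP in the nucleus, releases imported cargo and loads the exportins. Proliferating cells build new pores in interphase and take the envelope apart at each division.

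FSCN1 itself (GRCh38 chromosome 7, 5592816 to 5606655) fell from 46.1 FPKM ± 1.13 in NC to 3.49 FPKM ± 0.86 in siFSCN1 (SD, n = 3 each), with a log2 fold change of -3.89, so the labels of the 6 libraries fitted the silenced gene. FPKM are fragments scaled to gene length and to library depth. The libraries held between 27967301 and 36560919 counts. Of the markers known to be high in A549 cells, AKR1B10, ALDH1A1, NQO1 and AKR1C1 summed to between 4990 and 5265 FPKM in NC and between 5904 and 6093 FPKM in siFSCN1. Among these, ALDH1A1 was higher in siFSCN1 (log2 fold change 0.32), NQO1 and AKR1C1 were lower (-0.58 and -0.29) and AKR1B10 did not pass. The 5 epithelial markers summed to between 2607 and 3001 FPKM in NC and between 1526 and 1854 FPKM in siFSCN1, nearly all of it KRT8 and KRT18. KRT8, KRT18 and KRT19 were lower (-0.88, -0.99 and -1.10), whereas CDH1 and EPCAM were higher (1.35 and 0.29). The part of these marker changes in the results was not tested. The 3 endothelial markers summed to at most 0.04 FPKM in any library and the 4 fibroblast markers to at most 0.67 FPKM. The 3 leukocyte markers measured summed to between 2.79 and 2.99 FPKM in NC and between 3.86 and 4.83 FPKM in siFSCN1, nearly all of it CD14, while PTPRC and CD3E stayed at or below 0.02 FPKM. CDKN2A, on the same list as a gene deleted in A549 cells, had no entry in the count table.

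Of the 57 genes, 56 had enough counts to be tested. NUP210L, a paralog of NUP210, was left out, with 0, 0 and 1 counts in NC and 0, 1 and 0 counts in siFSCN1. Expression was compared with edgeR's quasi-likelihood test on the deposited counts, and p-values were adjusted over all 17076 genes tested. After silencing, 42 of the 56 genes (75.0%) were lower and 7 (12.5%) were higher at an adjusted p under 0.05, and 7 did not pass. Among all tested genes 33.2% were lower and 35.1% were higher by the same rule. The median log2 fold change of the 56 genes was -0.40, against 0.03 for all tested genes. When counts were scaled to library totals with no correction for composition, 34 of the genes were lower and 12 higher. In that scaling the median of all genes was 0.22 and that of the pore and transport genes -0.21, since a change of scaling moves all genes alike.

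Most of these changes were small. At least a 2-fold change together with an adjusted p under 0.05 was found for 5 of the 56 genes (8.93%), against 16.5% of all tested genes. NUP58, NUP210 and RAE1 were lower and KPNA7 and KPNA5 were higher by this rule. A change of at least 1.5-fold in either direction was found for 20 genes (35.7%), close to the 36.9% of all tested genes. These backgrounds include genes of low expression. With a mean of 5 to 50 FPKM, 6.45% of 31 pore and transport genes passed the 2-fold rule, against 7.27% of 4430 protein-coding genes. In that range the shares with at least a 1.5-fold change were 29.0% and 25.6%. Replicates lay close together. The values of the 3 NC and the 3 siFSCN1 libraries did not overlap for 52 of the 56 genes, of which 45 were lower and 7 higher, where 71.3% of all tested genes showed such a separation. These values were CPM, counts scaled to library size, here with the TMM factor that corrects for library composition. The 4 genes with overlapping values were IPO13, KPNA3, NUP133 and POM121. Fewer cells expressing a gene and less of its RNA per cell cannot be told apart in such bulk libraries. The share of all counts taken by 13 mitochondrially encoded protein genes was 8.93% ± 0.34 in NC and 12.7% ± 0.11 in siFSCN1 (SD, n = 3 each), and its part in these results was not tested.

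**Figure D1:**
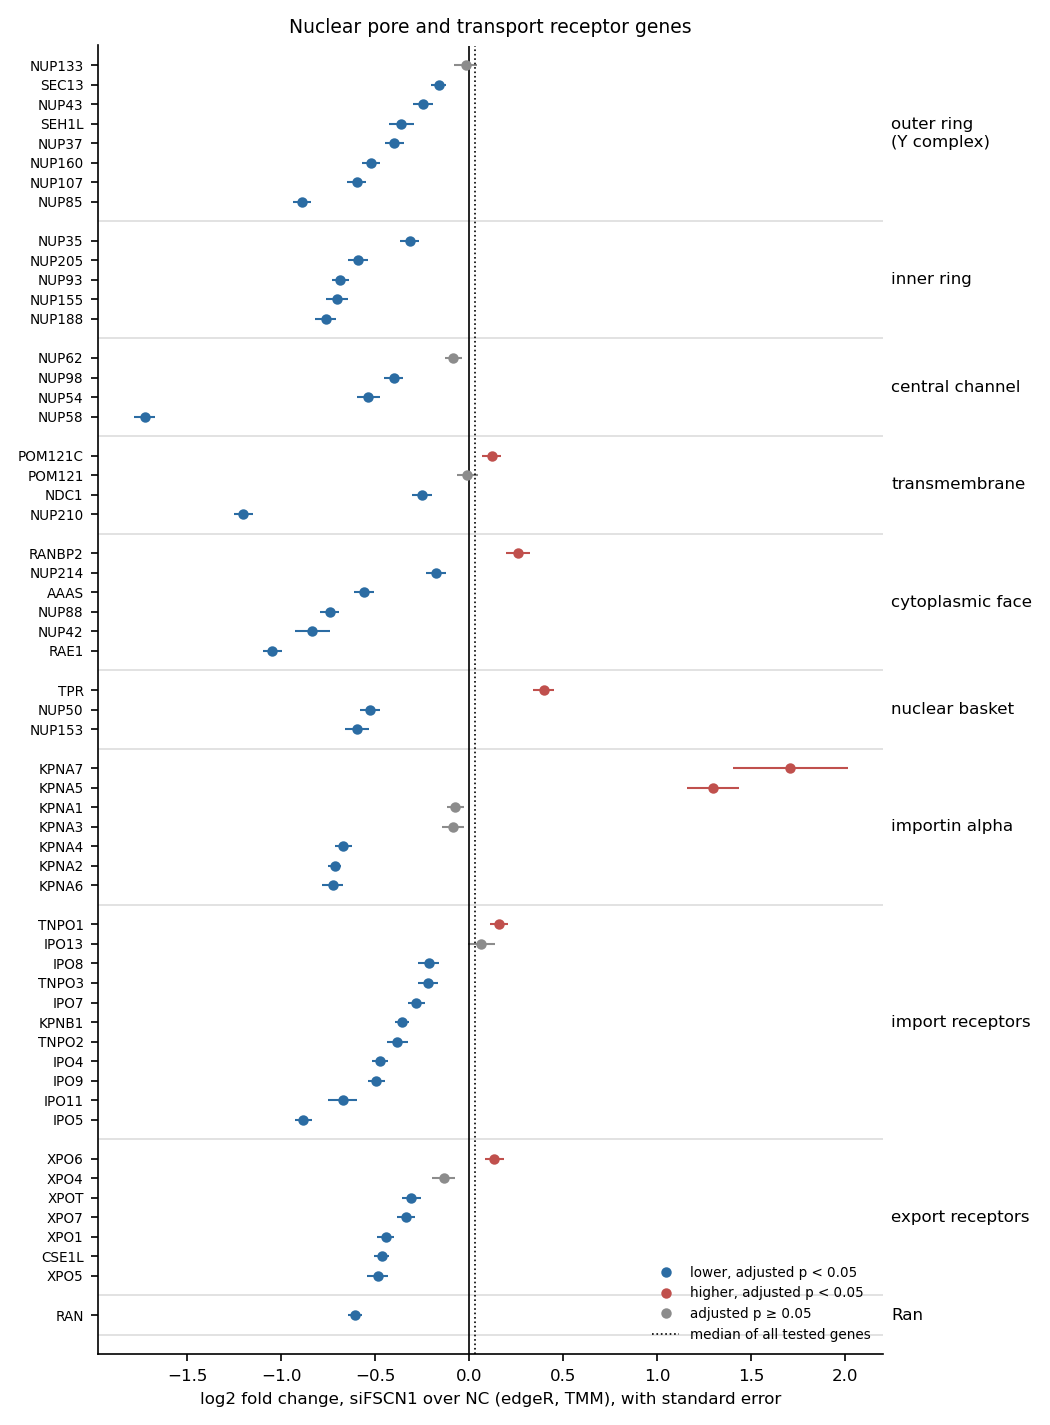
Log2 fold change of siFSCN1 over NC (horizontal axis, edgeR with TMM scaling, bars are standard errors) for the 56 tested genes, grouped by role in the pore or in transport. Blue points are the 42 genes lower and red points the 7 genes higher at an adjusted p under 0.05, grey points are the 7 that did not pass, and the dotted line is the median of all tested genes at 0.03.

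The scaffold genes of the set were lower almost throughout. All 5 inner ring genes fell, with log2 fold changes between -0.76 and -0.32. Of the 8 genes of the set in the outer ring, or Y complex, 7 fell, between -0.89 and -0.16. NUP133 did not pass at -0.02 (adjusted p = 0.792). The smallest of these falls, that of SEC13, did not pass with library totals, where its log2 fold change was 0.024. The largest fall in the outer ring was that of NUP85, a structural subunit of the Y complex. Its CPM were 82.8, 85.3 and 83.8 in NC and 47.0, 44.1 and 44.8 in siFSCN1. This gave a log2 fold change of -0.89 (standard error 0.05, adjusted p = 1.22e-11), a fall of about the same size in every silenced library. In the inner ring, NUP188, one of its large scaffold proteins, changed most. NUP188 had 51.0, 53.9 and 49.2 CPM in NC and 29.3, 31.8 and 29.6 CPM in siFSCN1 (log2 fold change -0.76, standard error 0.05, adjusted p = 7.11e-10). NUP133, which lies at the stem of the Y complex, had 33.0, 33.3 and 31.6 CPM in NC and 29.4, 32.3 and 34.8 CPM in siFSCN1, and the 2 ranges overlapped. Within the summed FPKM of these 8 genes, the share of NUP85 was 18.8% ± 0.12 in NC and 13.2% ± 0.53 in siFSCN1 (SD, n = 3 each). That of NUP133 was 6.24% ± 0.21 and 7.97% ± 0.66. AHCTF1, which encodes a further subunit of the Y complex, was not matched by the symbol rule. It is on the further list given below and rose by 0.25 on the log2 scale (adjusted p = 0.00325).

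Of the 4 central channel genes 3 fell, between -1.73 and -0.40, and NUP62 did not pass. NUP62, NUP54 and NUP58 form the channel subcomplex that carries phenylalanine-glycine repeats, and NUP98 is a further repeat protein that helps form the permeability barrier. NUP58 (GRCh38 chromosome 13, 25301524 to 25365390, plus strand) showed the largest fall of all 56 genes. It was counted at 43.8, 41.8 and 42.5 CPM in NC and 13.8, 12.8 and 12.0 CPM in siFSCN1, so that the highest silenced library lay far below the lowest control. It fell by 69.8% (log2 fold change -1.73, standard error 0.06, adjusted p = 2.17e-14). NUP62 had 100.5, 103 and 100.9 CPM in NC and 97.8, 97.9 and 91.6 CPM in siFSCN1 and did not pass (log2 fold change -0.08, adjusted p = 0.0952). The FPKM of NUP58 relative to NUP62 was 0.24 ± 0.01 in NC and 0.08 ± 0.003 in siFSCN1 (SD, n = 3 each). For NUP54 relative to NUP62 it was 0.35 ± 0.01 and 0.26 ± 0.01. Neither ratio overlapped between the groups. Exons of NUP62 overlap those of ATF5 on the opposite strand by 565 bases, and ATF5 fell with a log2 fold change of -1.91. The library kit kept the strand, but whether counting used it is not given in the sources used here, so both genes may share reads.

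Of the 4 transmembrane nucleoporins tested, 2 fell, POM121C rose and POM121 did not pass. NUP210 (GRCh38 chromosome 3, 13316235 to 13420322, minus strand) encodes a large glycoprotein of the pore membrane. Its CPM were 96.9, 100.002 and 94.5 in NC and 44.9, 40.5 and 41.0 in siFSCN1, with no library of one group near the other. The fall on the log2 scale was -1.20 (standard error 0.05, adjusted p = 5.25e-13). NUP210 made up 38.2% ± 0.49 (SD, n = 3) of the summed FPKM of the 4 transmembrane genes in NC and 22.8% ± 1.75 (SD, n = 3) in siFSCN1. POM121 and POM121C are near-identical copies. Per the study's methods only reads with a unique position were counted, so reads that match both copies may be missing from both values. POM121 had 29.2, 30.6 and 28.1 CPM in NC and 28.3, 27.7 and 31.2 CPM in siFSCN1 (log2 fold change -0.01, adjusted p = 0.885). POM121C had 32.4, 31.8 and 32.4 CPM in NC and 34.1, 34.7 and 36.3 CPM in siFSCN1 (log2 fold change 0.12, adjusted p = 0.04), a call that was lost in 8 of 15 alternatives.

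On the cytoplasmic face 5 of 6 genes fell, between -1.05 and -0.18, and RANBP2 rose. The smallest fall, that of NUP214, did not pass with library totals, where its log2 fold change was 0.011. RAE1 (GRCh38 chromosome 20, 57351223 to 57379211, plus strand) binds NUP98 and acts in mRNA export and at the mitotic spindle. It had 77.0, 74.1 and 72.9 CPM in NC and 36.9, 35.3 and 36.1 CPM in siFSCN1 (log2 fold change -1.05, standard error 0.05, adjusted p = 2.13e-12). With scaling to library totals the fall was -0.86, short of 2-fold. RANBP2 builds the cytoplasmic filaments and carries binding sites for Ran. It had 57.1, 52.5 and 52.3 CPM in NC and 59.3, 62.9 and 71.7 CPM in siFSCN1 (log2 fold change 0.26, standard error 0.06, adjusted p = 0.00143). The silenced libraries were higher than every control but spread over a wider range. RGPD3, RGPD5 and RGPD8, which arose from copies of RANBP2 and share sequence with it, had at most 33 counts in any library.

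In the nuclear basket the 3 genes moved apart. TPR (GRCh38 chromosome 1, 186311652 to 186375693, minus strand), the coiled-coil protein that forms the basket's struts, rose. Its CPM were 63.2, 62.0 and 59.7 in NC and 74.0, 82.0 and 87.4 in siFSCN1 (log2 fold change 0.40, standard error 0.06, adjusted p = 5.6e-06). NUP153 anchors the basket to the pore and fell. It had 48.9, 50.8 and 48.4 CPM in NC and 29.7, 31.9 and 36.2 CPM in siFSCN1 (log2 fold change -0.60, standard error 0.06, adjusted p = 1.29e-07). NUP50, a basket protein that helps importin alpha release its cargo, fell by 0.53 on the log2 scale. The FPKM of TPR relative to NUP153 was 0.62 ± 0.02 in NC and 1.24 ± 0.04 in siFSCN1 (SD, n = 3 each). Exons of TPR overlap those of PRG4 on the opposite strand by 670 bases. Larger overlaps on the opposite strand, among others, are those of NUP88 (3786 bases), POM121 (1845), NUP54 (1814) and KPNA1 (1377). IPO4 overlaps another gene on its own strand by 3375 bases, and such genes may share reads as well.

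**Figure D2:**
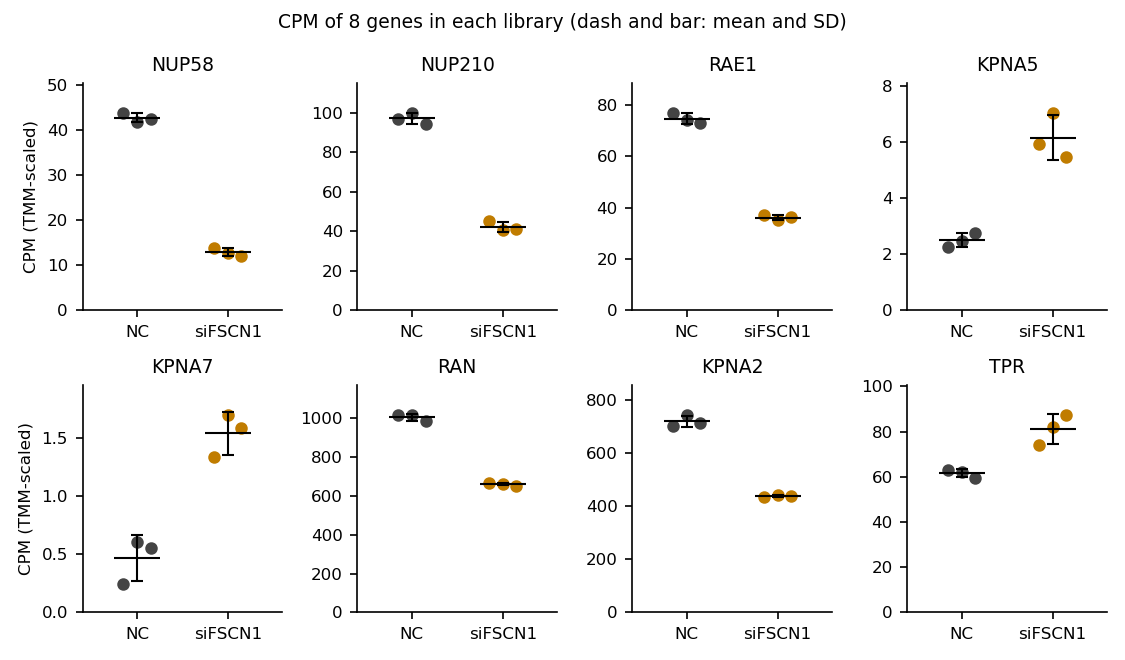
CPM after TMM scaling (vertical axes start at 0 and differ between panels) of 8 genes in each of the 3 NC and 3 siFSCN1 libraries. Points are libraries, the dash and bar are the mean and SD. NUP58, NUP210, RAE1, RAN and KPNA2 were lower and KPNA5, KPNA7 and TPR higher in every siFSCN1 library.

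The importin alpha adaptors showed both directions. KPNA2, KPNA6 and KPNA4 fell by 0.72, 0.73 and 0.67 on the log2 scale, KPNA5 and KPNA7 rose, and KPNA1 and KPNA3 did not pass. KPNA2 (GRCh38 chromosome 17, 68035636 to 68047364, plus strand), the adaptor that is abundant in proliferating cells, had 705, 745 and 715 CPM in NC and 436, 443 and 439 CPM in siFSCN1. The silenced libraries differed from each other by only a few CPM and lay well below every control (log2 fold change -0.72, standard error 0.04, adjusted p = 5.29e-12). KPNA6, a broadly expressed adaptor, had 52.4, 54.0 and 53.5 CPM in NC and 32.9, 29.9 and 33.8 CPM in siFSCN1 (adjusted p = 1.33e-09). KPNA1 had 68.6, 72.998 and 71.9 CPM in NC and 67.2, 68.0 and 67.7 CPM in siFSCN1 (log2 fold change -0.07, adjusted p = 0.166). KPNA3 had 58.9, 57.8 and 53.2 CPM in NC and 49.4, 54.2 and 56.5 CPM in siFSCN1 (log2 fold change -0.08, adjusted p = 0.207). Values of KPNA3 overlapped between the groups and those of KPNA1 nearly touched, and the direction of both turned with scaling to library totals.

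The adaptors that rose were the rarest. KPNA5 (GRCh38 chromosome 6, 116681187 to 116741867, plus strand) had 2.25, 2.47 and 2.75 CPM in NC and 5.93, 7.04 and 5.47 CPM in siFSCN1 (log2 fold change 1.30, standard error 0.14, adjusted p = 1.67e-07). KPNA7 (GRCh38 chromosome 7, 99173572 to 99250075, minus strand), an adaptor best known from oocytes and early embryos, had 0.242, 0.608 and 0.555 CPM in NC and 1.34, 1.70 and 1.59 CPM in siFSCN1 (log2 fold change 1.71, standard error 0.31, adjusted p = 7.84e-05). The KPNA7 values rested on 7, 16 and 19 counts in NC and 46, 56 and 54 counts in siFSCN1. In FPKM, which compares levels between genes, KPNA2 stood at 77.9 ± 2.56 (SD, n = 3) in NC and KPNA5 and KPNA7 at 0.173 ± 0.015 and 0.187 ± 0.076. KPNA2 was the main adaptor transcript in both groups. It held 72.2% ± 0.34 (SD, n = 3) of the summed importin alpha FPKM in NC and 65.5% ± 0.64 (SD, n = 3) in siFSCN1. The share of KPNA3 was 9.89% ± 0.55 and 13.9% ± 0.77, and that of KPNA1 6.17% ± 0.13 and 8.74% ± 0.09. KPNA5 and KPNA7 each stayed below 1% of the sum in every library, with highest shares of 0.67% and 0.944%.

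**Figure D3:**
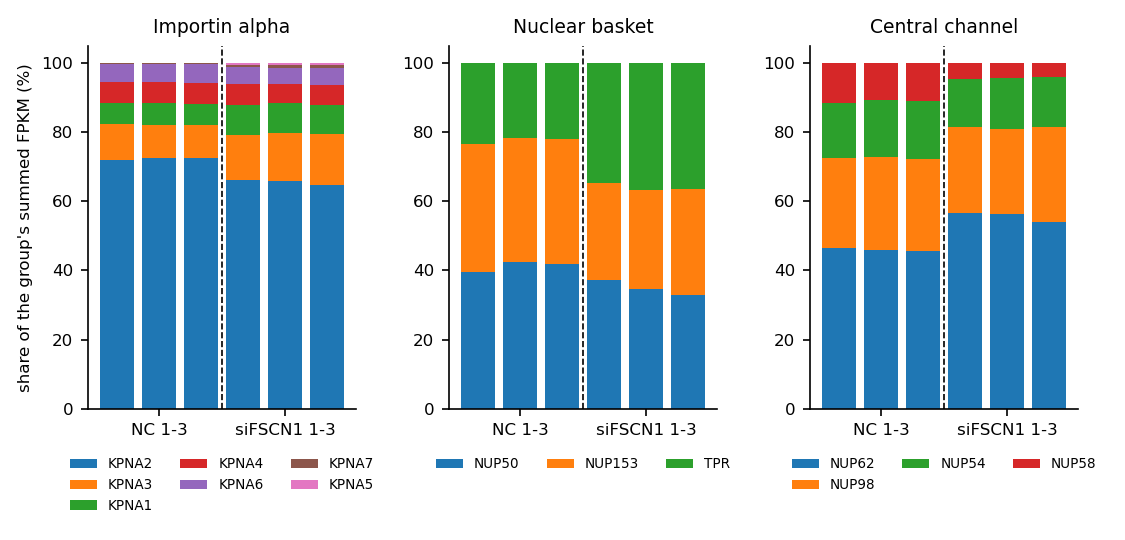
Share of the summed FPKM of 3 groups of genes (vertical axis, percent) taken by each member in each library, with NC replicates left and siFSCN1 replicates right of the dashed line. KPNA2 took between 71.8% and 72.5% of importin alpha in NC and between 64.8% and 66.0% in siFSCN1, TPR rose from at most 23.6% to at least 34.7% of the basket, and NUP58 went from at least 10.8% to at most 4.63% of the central channel.

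Of the 11 import receptors of the importin beta family, 9 fell, TNPO1 rose and IPO13 did not pass. With library totals the log2 fold changes of IPO8 and TNPO3, which had fallen, were only -0.029 and -0.030. KPNB1, the partner of importin alpha, had 291, 295 and 287 CPM in NC and 228, 218 and 235 CPM in siFSCN1 (log2 fold change -0.36, standard error 0.04, adjusted p = 1.51e-07). The fall was similar in the 3 silenced libraries. IPO5, an importin that carries ribosomal proteins and histones among other cargo, fell most. It had 137, 149 and 141 CPM in NC and 79.0, 73.9 and 78.3 CPM in siFSCN1 (log2 fold change -0.88, standard error 0.05, adjusted p = 7.71e-12). TNPO1, which imports RNA-binding proteins with a proline-tyrosine signal, had 222, 249.6 and 242 CPM in NC and 251, 268 and 278 CPM in siFSCN1 (log2 fold change 0.16, adjusted p = 0.00605). The groups of TNPO1 lay close together, and without NC replicate 1 its adjusted p was 0.0799. IPO13, which both imports and exports cargo, had 20.3, 17.0 and 20.4 CPM in NC and 20.7, 20.6 and 19.2 CPM in siFSCN1 (log2 fold change 0.06, adjusted p = 0.45). The FPKM of KPNA2 relative to KPNB1 was 3.47 ± 0.07 in NC and 2.71 ± 0.12 in siFSCN1 (SD, n = 3 each).

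Of the 7 export receptors, 5 fell, between -0.49 and -0.31, XPO6 rose and XPO4 did not pass. XPO5, the exportin of microRNA precursors, fell most, with 55.7, 60.8 and 56.7 CPM in NC and 39.5, 40.1 and 43.8 CPM in siFSCN1 (log2 fold change -0.49, adjusted p = 3.38e-07). CSE1L returns importin alpha to the cytoplasm and was the export receptor with the highest FPKM, at 38.1 ± 1.67 (SD, n = 3) in NC. Its CPM were 175, 185 and 187 in NC and 131, 132 and 134 in siFSCN1 (log2 fold change -0.47, adjusted p = 6.41e-09). XPO1, the main receptor of leucine-rich export signals, had 201, 217 and 205 CPM in NC and 144, 152 and 162 CPM in siFSCN1 (log2 fold change -0.44, adjusted p = 8.5e-08). All 3 of these receptors were lower in every silenced library. XPO6, the exportin of actin-profilin complexes, had 78.8, 83.2 and 73.2 CPM in NC and 84.9, 86.2 and 86.8 CPM in siFSCN1 (log2 fold change 0.13, adjusted p = 0.0222), and the call was lost in 4 of 15 alternatives. XPO4 had 22.6, 24.9 and 23.9 CPM in NC and 20.3, 22.2 and 22.5 CPM in siFSCN1 (log2 fold change -0.14, adjusted p = 0.0566).

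RAN (GRCh38 chromosome 12, 130872037 to 130877678, plus strand), the GTPase that gives transport its direction, was the most abundant of the 56 transcripts, at 171 FPKM ± 1.83 in NC and 126 FPKM ± 2.32 in siFSCN1 (SD, n = 3 each). It had 1019, 1016 and 987 CPM in NC and 665, 663 and 654 CPM in siFSCN1. It fell by 34.4% (log2 fold change -0.61, standard error 0.04, adjusted p = 3.58e-11). RAN has 9 annotated pseudogenes named after it and KPNA2 has 3, and reads that match a parent gene and its pseudogene equally may be missing from the counts. The FPKM of RAN relative to KPNB1 was 7.64 ± 0.08 in NC and 6.43 ± 0.29 in siFSCN1 (SD, n = 3 each).

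The calls were read against expression level, since highly expressed genes were lower more often in the whole data set. Among 4430 tested protein-coding genes with a mean of 5 to 50 FPKM, 57.2% were lower and 24.8% higher, with a median log2 fold change of -0.19. Of the 31 pore and transport genes in this range, 26 were lower and 2 higher, with a median of -0.40. Below 1 FPKM lay only KPNA5 and KPNA7, and both were higher. In that range 42.4% of 3696 protein-coding genes were higher, 16.0% were lower, and the median was 0.31. Between 1 and 5 FPKM, 14 of 21 pore and transport genes were lower and 3 higher, with a median of -0.38. Of 4882 protein-coding genes in that range 32.1% were lower and 38.9% higher, with a median of 0.046. The median of the pore and transport genes thus had the sign of the protein-coding median from 5 to 50 FPKM and below 1 FPKM. From 1 to 5 FPKM it had the opposite sign. The part of expression level in the calls was not tested. By function, the 30 nucleoporins had a median of -0.53, with 24 lower and 3 higher, and the 25 receptors and adaptors had a median of -0.34, with 17 lower and 4 higher, a difference that was not tested.

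**Figure D4:**
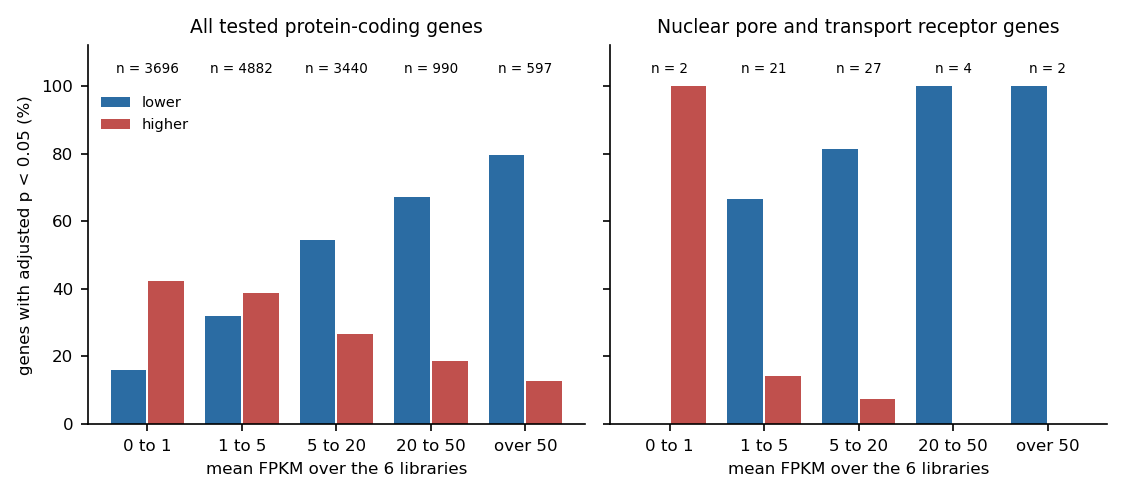
Percent of genes lower (blue) or higher (red) at an adjusted p under 0.05 (vertical axis) by mean FPKM over the 6 libraries (horizontal axis), for all tested protein-coding genes (left) and for the pore and transport genes (right), with the number of genes above each pair. In the 5 to 20 FPKM range 54.3% of 3440 protein-coding genes and 81.5% of 27 pore and transport genes were lower, and the ranges below 1 and above 50 FPKM hold 2 such genes each.

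Sequence before the transcription start was available for 51 of the genes (RefSeq, GRCh38.p14, 250 bases before each start). It was searched on both strands for 7 short motifs. A further motif, that of the factor NRF1, was searched at first and is not reported here. A match describes these letters and not a bound site. The RefSeq start lay after the first start annotated in GENCODE for 32 of the 51 genes, so part of the sequence searched can lie inside the gene as its coordinates are given here. The motif of ETS factors, CCGGAAG, was present before 16 of the 51 genes (31.4%) and before 14 of the 38 that had fallen (36.8%). It was present in 8.52% of all 35116 promoters in the table, in 15.5% of the 10676 promoters matched to tested protein-coding genes and in 18.6% of the 4091 of these genes that fell. Among the 13 pore and transport genes that rose, did not pass or were not tested, 2 (15.4%) held it. These were the near-identical copies POM121 and POM121C, so they are not independent cases. The sites of the 5 genes with an ETS motif that fell most are printed below with their flanks, 30 bases each, 5′ to 3′ on the strand on which the motif reads CCGGAAG, and the capitals mark the motif. They lie at chr13:25301548-25301577 (minus strand) for NUP58, chr17:5419743-5419772 (plus strand) for NUP88, chr12:68686948-68686977 (minus strand) for NUP107, chr4:76148550-76148579 (minus strand) and chr4:76148489-76148518 (plus strand) for NUP54, and chr22:45163895-45163924 (plus strand) for NUP50. The site of NUP58, the gene with the largest fall, begins 66 bases before its RefSeq start, which lies 101 bases after the first GENCODE start. The sites of NUP58, NUP88 and NUP107 thus lie after the first GENCODE start of their gene, and those of NUP54 and NUP50 before it.
NUP58: gcacgtagcccgCCGGAAGtgtaaccgtca
NUP88: cgagcagacggcCCGGAAGctcgagaggct
NUP107: gacCCGGAAGcagtctgtccctaaaacaga
NUP54, minus strand: tgtgaagcccaCCGGAAGtgagctggctgg
NUP54, plus strand: tagcctaagaggCCGGAAGgcgccaagggc
NUP50: ccggcggaaggaggtgctactgCCGGAAGc

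The CCAAT box of the factor NF-Y was present before 21 of the 51 genes (41.2%), against 32.0% of all promoters and 34.8% of those of tested protein-coding genes. KPNA2 carried it at 89 and 58 bases before its RefSeq start, which is 99 bases after the first GENCODE start, so both boxes lie inside the GENCODE gene. They are at chr17:68035634-68035663 and chr17:68035665-68035694 on the plus strand and are printed here in capitals because KPNA2 was the most abundant adaptor and fell.
KPNA2, 89 bases: ttttcaaatccaCCAATgggcacacagctt
KPNA2, 58 bases: ggctcgaaccagCCAATcggaatgcggagt

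The E-box CACGTG, read by MYC/MAX and USF, was present before 7 of the 51 genes (13.7%), against 6.34% of all promoters and 8.83% of those of tested protein-coding genes. RAN held 1 E-box and 6 GC boxes (GGGCGG or its complement, read by SP1). The E-box of RAN, 102 bases before the RefSeq start, shares its last base with a GC box. NUP210 held 1 GC box, 17 bases before the RefSeq start, and none of the other motifs reported. The sequence of both is printed up to the first annotated exon base, at chr12:130871816-130872036 (plus strand) for RAN and chr3:13420323-13420572 (minus strand) for NUP210, with the motifs in capitals, to show 2 genes that fell with very different motif content at a like GC content of 81.9% and 80.8%.
RAN: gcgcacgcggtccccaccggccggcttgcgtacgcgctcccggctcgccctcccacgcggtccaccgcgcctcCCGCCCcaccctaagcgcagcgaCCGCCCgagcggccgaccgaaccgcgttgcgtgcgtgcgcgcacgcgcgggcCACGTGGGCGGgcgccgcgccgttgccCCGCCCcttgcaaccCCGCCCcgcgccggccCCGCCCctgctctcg
NUP210: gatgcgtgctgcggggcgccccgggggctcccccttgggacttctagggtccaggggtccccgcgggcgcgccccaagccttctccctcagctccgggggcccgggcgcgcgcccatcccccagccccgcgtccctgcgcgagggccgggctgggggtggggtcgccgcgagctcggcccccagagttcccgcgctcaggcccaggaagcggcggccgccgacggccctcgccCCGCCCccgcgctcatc

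The GC box was present before 26 of the 51 genes (51.0%), against 42.6% of all promoters and 67.2% of those of tested protein-coding genes. The TATA box TATAAA was present before 2 of the 51 (3.92%), against 10.7% of all promoters and 5.43% of those of tested protein-coding genes. The E2F motifs TTTGGCGC and TTTCCCGC were present in 0.55% and 1.39% of all promoters, in 0.88% and 2.21% of those of tested protein-coding genes and before none of the 51.

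A further list, also written with earlier results of these data known, held other genes of nuclear transport and the nuclear envelope. It named 67 symbols, of which 63 matched a gene of the table, and all 63 were tested. The others, NUPL1, NUPL2, C11orf73 and SHFM1, are older symbols of NUP58, NUP42, HIKESHI and SEM1, which were tested under their present symbols. Of these, 42 (66.7%) were lower, 11 (17.5%) higher and 10 did not pass, with a median log2 fold change of -0.34. Among all tested genes 33.2% were lower and 35.1% higher, with a median of 0.03. With scaling to library totals 32 of the 63 were lower and 15 higher. The Ran cycle had 4 of 6 genes lower and none higher. RANBP1, a cofactor of GTP hydrolysis by Ran, fell by 0.93 on the log2 scale, RANGAP1, the activator of that hydrolysis, by 0.80, and RCC1, the nucleotide exchange factor of Ran, by 0.69. RANGRF, also known as MOG1, fell by 0.50. NUTF2, the import receptor of Ran itself, had a log2 fold change of -0.08 and did not pass (adjusted p = 0.0711). The 4 other pore components of the list showed no common direction, with a median of -0.02. Of these, 1 was lower, AHCTF1 of the Y complex rose by 0.25 on the log2 scale (adjusted p = 0.00325) and 2 did not pass.

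The envelope and lamina had 12 of 14 genes lower and 1 higher. LMNB2, a B-type lamin, showed the largest fall of the list. Its FPKM were 20.2 ± 0.83 in NC and 8.51 ± 0.68 in siFSCN1 (SD, n = 3 each) (log2 fold change -1.42, adjusted p = 6.41e-14). LMNB1, the other B-type lamin, fell by 1.19 on the log2 scale, and LMNA, the gene of the A-type lamins, by 0.48. All 4 genes of the SUMO pathway, which modifies RanGAP1 at the pore, were lower, between -0.59 and -0.12.

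Factors of mRNA export moved in both directions, with 14 of 24 lower, 6 higher and 4 not passing. NXT2, a partner of the export receptor NXF1, had 3.55 FPKM ± 0.35 in NC and 1.53 FPKM ± 0.28 in siFSCN1 (SD, n = 3 each) (log2 fold change -1.38, adjusted p = 2.96e-08). ALYREF, the adaptor that hands mRNA to NXF1, had 97.0 FPKM ± 2.39 in NC and 44.2 FPKM ± 2.26 in siFSCN1 (SD, n = 3 each) (log2 fold change -1.30, adjusted p = 1.94e-14). Both were lower in every silenced library. THOC2, a scaffold subunit of the THO complex, rose by 0.40 on the log2 scale (adjusted p = 4.26e-06) and ZC3H11A, an export factor with zinc fingers, by 0.28 (adjusted p = 3.75e-05). Among other receptors and adaptors 7 of 11 were lower and 3 higher. RANBP17, a rare exportin-like receptor, showed the largest rise of the list, from 0.18 FPKM ± 0.035 in NC to 0.40 FPKM ± 0.035 in siFSCN1 (SD, n = 3 each) (log2 fold change 0.99, adjusted p = 8.38e-06). Like KPNA5 and KPNA7, it lay below 1 FPKM.

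**Figure D5:**
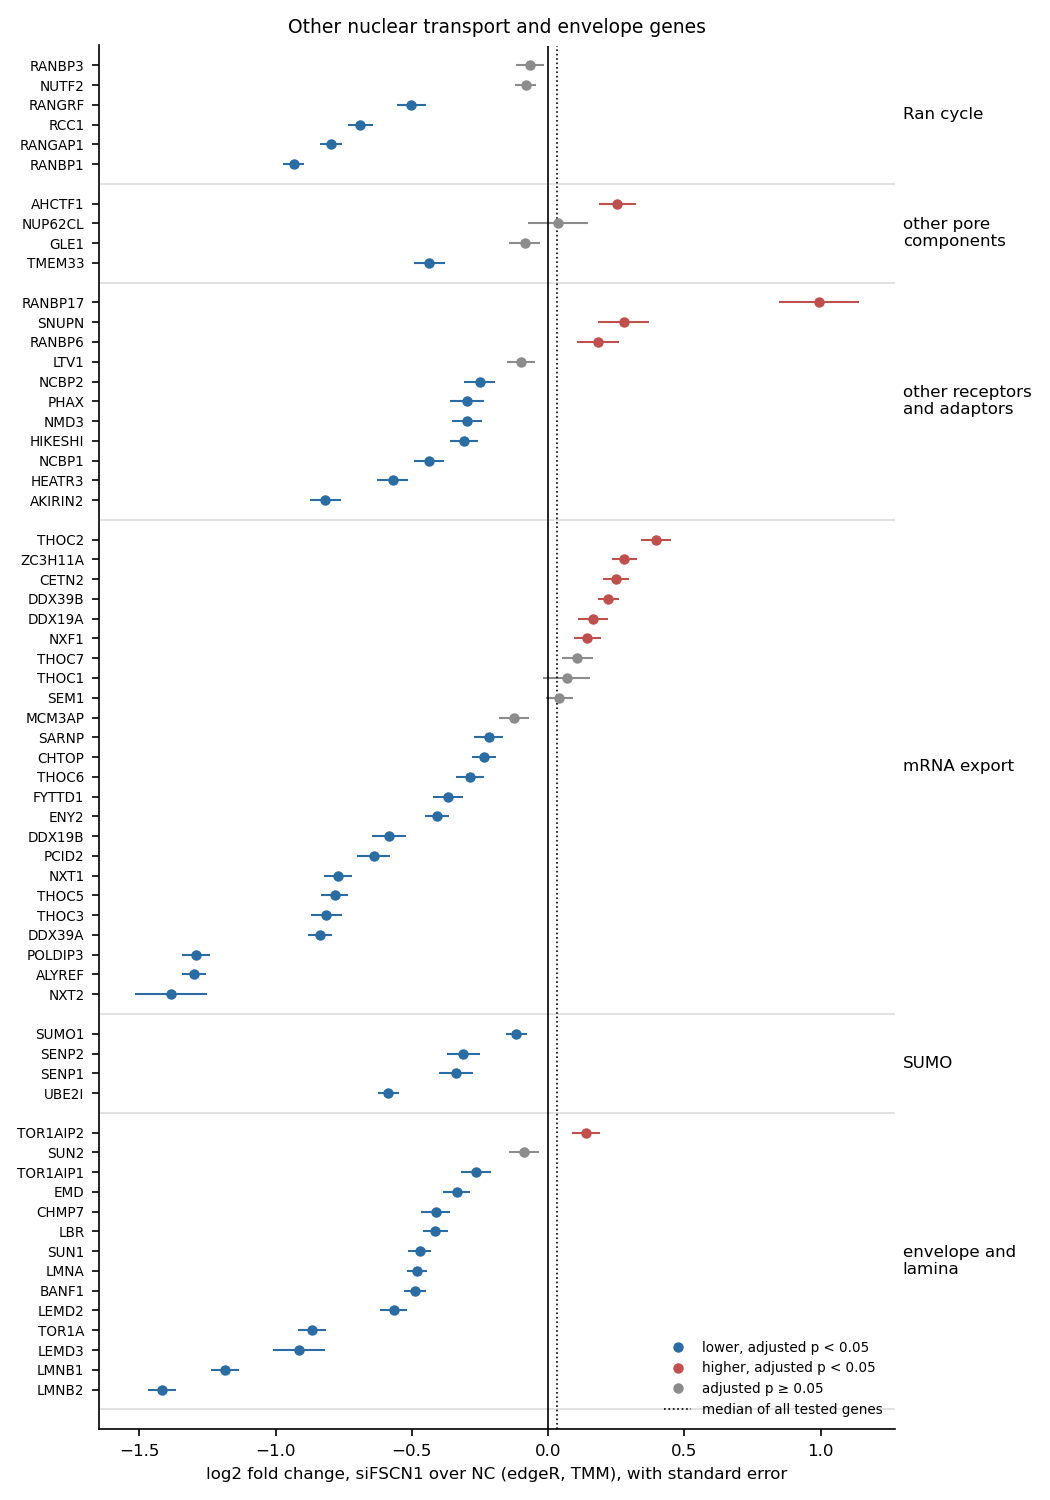
Log2 fold change of siFSCN1 over NC (horizontal axis, edgeR with TMM scaling, bars are standard errors) for the 63 other nuclear transport and envelope genes, grouped by function. Blue points are the 42 genes lower and red points the 11 higher at an adjusted p under 0.05, and grey points are the 10 that did not pass. LMNB2, at -1.42, lies farthest left and RANBP17, at 0.99, farthest right.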

How the data were processed

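Polyadenylated RNA of 6 A549 libraries (3 NC, 3 siFSCN1) was sequenced. The authors deposited whole-number counts of 30230 genes, and FPKM values scaled by them to gene length and library depth. Per the study's methods reads were aligned with HISAT2, whereas the submitters' processing notes list bcl2fastq and TopHat2. Per the methods the kit was stranded and only reads with a unique position were counted. The counting program, its annotation and its use of strand are not given in the sources used here. Samples were grouped by their titles.

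Genes were filtered with edgeR's filterByExpr (edgeR 4.0.16, R 4.3.3), scaled by TMM and compared with the quasi-likelihood test, without covariates, with Benjamini-Hochberg adjustment over 17076 genes. A gene passed at an adjusted p under 0.05. The common biological coefficient of variation was 5.94%. Levels between genes were compared in FPKM, which carry no TMM factor. Scripts were tested on simulated counts with few changed genes, as many raised as lowered. That setting does not test the scaling where library composition differs between the groups. Positions and exon overlaps came from GENCODE v44, which held 30147 of the identifiers.

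The genes and lists were chosen with earlier results of these data known. Genes named with values were FSCN1, RAN, KPNB1, XPO1, CSE1L and KPNA2, genes past 2-fold, the largest separated change of each role in each direction, genes that did not pass, and the 3 largest rises and falls of the further list. Others were named after their values were seen: KPNA4, NUP54, NUP88, NUP107, NUP50, NUP43, NUP214, SEC13, NDC1, IPO8, TNPO3 and AHCTF1. So were the Ran cycle, lamin, pseudogene and overlapping genes. Alternatives were RLE, upper quartile and library total scaling, DESeq2 1.42.0, filters at 1 count in any library or at both 10 counts on average and 1 CPM in at least 3 libraries, a replicate block, each library left out, limma 3.58.1 on log2(FPKM + 0.1) and log2(FPKM + 1), and glmTreat against 1.5-fold.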

Additional observations from a re-analysis of the deposited data

How the results depend on the processing

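Of the 28 genes of the pore and transport set that were named by rule, 18 kept their direction and their side of the threshold under all 15 alternatives. These 15 leave out glmTreat, which was not compared gene by gene. Between 41 and 50 of the 56 had an adjusted p under 0.05, and the genes past 2-fold were 4 or 5 in each alternative except limma on log2(FPKM + 1), which left 1 (NUP58), and glmTreat at 1.5-fold, which called 15 (13 lower, 2 higher). Limma on log2(FPKM + 1), which damps low values, also left 471 of all genes against 2820, and library totals gave 2637 higher and 510 lower against 1991 and 829. The member median minus that of all genes, -0.43, was -0.54 with no filter, where genes of few counts enter, and -0.29 on log2(FPKM + 1). Leaving out 1 library gave between 47 and 50 genes with an adjusted p under 0.05 and always 5 past 2-fold. RAE1 fell short of 2-fold with upper quartile scaling, library totals and both limma fits.

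The named genes that turned direction had not passed in the main comparison. NUP214 and SEC13, which had passed as lower, were 0.011 and 0.024 with library totals and did not pass there. Of the 42 genes that had passed as lower, 34 passed as lower in that scaling. Further falls were small there, such as those of IPO8 (-0.029), TNPO3 (-0.030), NUP43 (-0.059) and NDC1 (-0.063). With upper quartile scaling the log2 fold changes were 0.045 for KPNA1, 0.033 for KPNA3, 0.10 for NUP133, 0.034 for NUP62 and 0.11 for POM121. With library totals they were 0.11, 0.10, 0.17, 0.10 and 0.18 for the same genes and 0.051 for XPO4, and KPNA1, NUP133, NUP62 and POM121 then passed as higher (adjusted p = 0.0404, 0.0241, 0.0398 and 0.0132), as did IPO13 at 0.25 (0.0048). On log2(FPKM + 0.1) they were 0.092 for KPNA1, 0.079 for KPNA3, 0.14 for NUP133, 0.080 for NUP62, 0.15 for POM121 and 0.028 for XPO4, and on log2(FPKM + 1) 0.081, 0.073, 0.12, 0.075, 0.11 and 0.019. With the stricter filter NUP133 was 0.00998 and POM121 0.019. Without 1 library NUP133 ran from -0.090 to 0.028, POM121 from -0.074 to 0.016 and IPO13 from -0.025 to 0.10. The cause was not tested.

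Libraries of equal replicate number gave correlations of deviations of -0.03, 0.04 and -0.08, and the highest of any pair was 0.11 (NC 1 with siFSCN1 3). With 3 libraries per group such values cannot exclude pairing. With the replicate block 50 genes had an adjusted p under 0.05 and the same 5 passed 2-fold, and the further list gave 53. Depth limits KPNA7, with 7 counts in its lowest library, and NUP210L.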
